A study of Mus musculus with 2 samples.

Results

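Interferon response genes were placed on the loops and domains of a Hi-C map, an assay of which stretches of the genome touch in the nucleus. The cells were HPC5, a line of blood progenitors derived from mouse bone marrow. The 43 genes are a list of interferon receptor chains, transcription factors, nucleic acid sensors, antiviral effectors and antigen presentation genes. They were chosen by name and not by a measured value, but with earlier results of these data known. All 43 were found among 49209 annotated genes on the autosomes and X, and 21480 other protein-coding genes were used for comparison. The samples were 2 replicates of 1 group with genotype Etv6+/+ and no treatment named in the labels, from a study whose title concerns repression of inflammatory genes by ETV6, an ETS-family transcription factor. No mutant or interferon-treated sample was analysed here, so the comparisons are between genes. Nothing in the labels tells whether the 2 replicates were grown apart, and differences between them can be technical. The lists hold no expression values, and the labelled cell type could not be checked against its markers.

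Type I interferons bind a receptor built from IFNAR1 and IFNAR2, and IFNGR2 is a chain of the receptor for interferon gamma. Kinases on these receptors activate STAT proteins, which bind the interferon-stimulated response element (ISRE) together with IRF9, or the gamma-activated site (GAS) as dimers, and so induce antiviral and antigen presentation genes. In blood stem cells interferon is known to push resting cells into division.

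A loop in the deposited lists is a pair of anchors, which are bins of 5, 10 or 25 kb. Replicate 1 listed 1276 loops under the medium setting and 202 under the stricter high setting, and replicate 2 listed 5729 and 3354. The domain lists held 3 and 339 domains. A loop counted as shared if the other replicate had a loop with each anchor midpoint no more than 20 kb away. Each loop carries a whole number n, which the files do not define. It is given with its percentile, the share of loops of the same replicate, anchor width and span whose n was no higher. The depth behind the lists is unknown, and a loop absent from the shorter replicate 1 list was not detected there, which does not show that it was missing. All loops below are from the medium setting and all coordinates are mm10.

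The interferon response genes lay under loops more often than at anchors, as other protein-coding genes did. Of the 43 genes 8 had an end in an anchor (Irf7, Socs1, Dhx58, Mx1, Herc6, Parp14, Parp9 and Dtx3l), which is 18.6% (95% Wilson interval 9.74 to 32.6%), against 22.6% of other protein-coding genes. A total of 23, or 53.5% (38.9 to 67.5%), lay whole under a loop, between the outer edges of its anchors, against 34.9% of other genes (34.3 to 35.6%). There were 16 genes under a loop with no end in an anchor, 7 with both placements and 19 with neither. In a domain were 3 genes, or 6.98% (2.4 to 18.6%), against 3.98%.

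**Figure D1:**
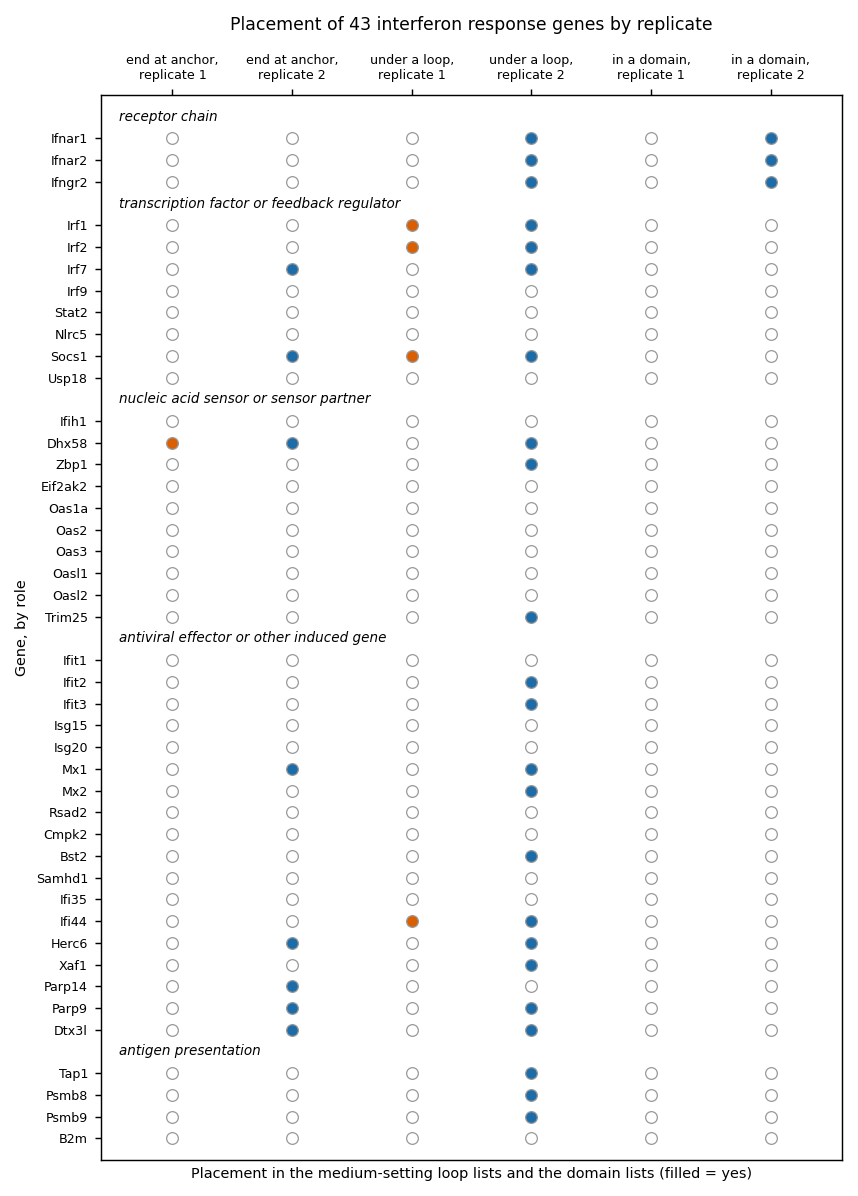
Each row is 1 of the 43 genes, grouped by role, and each column is a placement in 1 replicate, with filled circles for yes (orange for replicate 1, blue for replicate 2). Replicate 1 has 1 gene at an anchor and 4 under a loop, and replicate 2 has 8 and 23.

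The replicates gave very different numbers of placed genes. In replicate 1, 1 gene was at an anchor (2.33%, against 6.68% of other genes) and 4 were under a loop (9.3%, against 9.28%). In replicate 2 there were 8 at an anchor (18.6%, against 19.8%) and 23 under a loop (53.5%, against 34.0%). Every gene placed by a replicate 1 loop was placed in the same way by replicate 2. Wilson intervals cover counting error only and treat genes as independent, which neighbours under the same loop are not.

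The loop results below turn on genes under a shared loop and on the Ifit genes. The promoters of Ifi44, which also lay under a shared loop, and of Ifit2 are not shown. Shown here are the promoters of 3 of the 4 genes under a shared loop and of 2 Ifit genes, inside and just outside a loop. They are RefSeq sequences of the GRCm38.p6 table, 300 bases each, from 250 before the annotated start to 50 from it on, written 5′ to 3′ on the gene's strand. Capitals mark matches to the letters GAAANNGAA (the core of the ISRE), TTCNNNGAA (GAS) or CCGGAA (bound by many ETS factors), searched on both strands.

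Irf1, chr11:53769764-53770063, plus strand: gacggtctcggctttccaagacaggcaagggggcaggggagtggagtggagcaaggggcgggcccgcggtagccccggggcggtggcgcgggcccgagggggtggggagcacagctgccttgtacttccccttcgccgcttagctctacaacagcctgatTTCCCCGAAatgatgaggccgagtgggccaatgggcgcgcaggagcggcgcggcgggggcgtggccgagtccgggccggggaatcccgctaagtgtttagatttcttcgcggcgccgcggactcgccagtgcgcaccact

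Irf2, chr8:46739495-46739794, plus strand: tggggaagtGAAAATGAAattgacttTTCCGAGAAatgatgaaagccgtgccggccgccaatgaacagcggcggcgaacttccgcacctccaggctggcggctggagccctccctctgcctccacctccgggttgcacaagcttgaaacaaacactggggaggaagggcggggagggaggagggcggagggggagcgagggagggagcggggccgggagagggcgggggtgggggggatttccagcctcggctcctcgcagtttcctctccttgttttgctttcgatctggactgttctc

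Socs1, chr16:10785487-10785786, minus strand: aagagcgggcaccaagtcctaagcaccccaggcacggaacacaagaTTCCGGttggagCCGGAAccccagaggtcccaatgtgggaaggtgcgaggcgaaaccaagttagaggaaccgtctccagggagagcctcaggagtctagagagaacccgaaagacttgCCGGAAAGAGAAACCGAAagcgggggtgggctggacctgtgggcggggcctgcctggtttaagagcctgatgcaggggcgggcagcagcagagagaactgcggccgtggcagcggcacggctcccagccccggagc

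Ifit3, chr19:34583279-34583578, plus strand: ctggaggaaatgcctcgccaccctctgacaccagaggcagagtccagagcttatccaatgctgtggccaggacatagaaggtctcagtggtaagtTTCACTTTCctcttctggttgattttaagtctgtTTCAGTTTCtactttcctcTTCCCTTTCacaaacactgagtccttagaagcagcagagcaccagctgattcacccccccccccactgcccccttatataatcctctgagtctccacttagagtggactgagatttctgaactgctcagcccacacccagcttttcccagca

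Ifit1, chr19:34640639-34640938, plus strand: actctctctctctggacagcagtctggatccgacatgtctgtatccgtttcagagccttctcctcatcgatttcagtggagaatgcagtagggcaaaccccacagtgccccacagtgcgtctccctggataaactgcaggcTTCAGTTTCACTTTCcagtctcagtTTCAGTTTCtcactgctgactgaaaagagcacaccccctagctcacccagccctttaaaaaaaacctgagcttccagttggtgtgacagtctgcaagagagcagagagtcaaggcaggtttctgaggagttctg

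The Irf1 window, 1 of its 2, had 1 GAS match, which began 90 bases before the start, and no ISRE match. Irf2 had an ISRE match at 241 bases and a GAS match at 224 bases before the start. Socs1 had 2 overlapping ISRE matches at 83 and 77 bases before the start, and the last of its 3 ETS matches, at 86 bases, overlapped the first of them. Ifit3 had ISRE matches at 155, 121 and 102 bases, and Ifit1 at 109, 103 and 84 bases, of which the first 2 overlap. Ifit2, under the same loop as Ifit3, had no ISRE match in either of its 2 windows. It had a GAS match at 241 bases and ETS matches at 205 and 203 bases before the start. A match of letters is a description and not a shown binding site.

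Over the list, windows were given for 34 of the 43 genes (39 windows). An ISRE match was in 15 of the 39 windows (38.5%), against 8.53% of 32619 windows of the same length. A GAS match was in 12 (30.8%, against 8.34%) and an ETS match in 6 (15.4%, against 15.0%). The list was chosen for its known response to interferon, so the ISRE and GAS shares are no independent result. Of the 4 genes whose annotated start lay in an anchor, Socs1 had an ISRE and an ETS match, and Irf7, Herc6 and Dtx3l had no match to any of the letters in this window.

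The 3 interferon receptor genes of the list lay together in 1 domain, which replicate 2 alone listed. Ifnar1 and Ifnar2, whose products form the type I receptor, and Ifngr2 lie within 191.2 kb on chromosome 16. Replicate 2 listed a domain of 325 kb at 91355001 to 91680000 that held all 3 genes, and the replicate 1 domain list had none there. The domain held 9 protein-coding genes, and among the others was Il10rb, whose product is a chain of the receptors for interleukin 10 and the lambda interferons. Ifnar2 began 17.8 kb from the left edge of the domain and Ifngr2 ended 116 kb from its right edge.

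A replicate 2 loop of 700 kb also covered the 3 receptor genes, joining 90950001 to 90974999 and 91650001 to 91674999 (n = 33, percentile 50 among 20 loops). Its right anchor lay at the right end of the domain and held ends of Donson and Gm36712, while its left anchor lay outside the domain and held no protein-coding gene end. None of the 3 receptor genes had an end in an anchor, and their distances to the nearest anchor were 22.8 kb for Ifnar2, 86.0 kb for Ifngr2 and 135 kb for Ifnar1.

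Among 8 transcription factors and feedback regulators, 3 lay under a shared loop, where 7.35% of other protein-coding genes did, and 8 genes are too few to set a share against that. Irf1, whose product activates interferon and antigen presentation genes, was the only protein-coding gene wholly under its loop on chromosome 11 in both replicates. The replicate 1 loop spanned 125 kb, from 53725001 to 53749999 and 53850001 to 53874999 (n = 36, percentile 60.6). The replicate 2 loop spanned 100 kb, from 53750001 to 53759999 and 53850001 to 53859999 (n = 40, percentile 85.4). The replicate 1 anchors held an end of Il5, a cytokine gene, on the left and of Slc22a5, a carnitine transporter gene, on the right, while the narrower replicate 2 anchors held no protein-coding gene end. Irf1 began 10.0 kb to the right of the replicate 2 left anchor.

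Irf2, whose product competes with IRF1 at its sites and restrains interferon responses, was likewise alone under its loop on chromosome 8. The loop spanned 300 kb in replicate 1 (46650001 to 46674999 and 46950001 to 46974999, n = 22, percentile 33.3) and 280 kb in replicate 2 (46670001 to 46674999 and 46950001 to 46954999, n = 24, with only 2 loops of that width and span). No anchor of it held a protein-coding gene end, and the gene lay 64.7 kb from the left anchor and 102.5 kb from the right. Neither Irf1 nor Irf2 had an end in an anchor of these loops in either replicate.

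Socs1, which encodes an inhibitor of Janus kinases that ends interferon signalling, had 4 loops over it on chromosome 16. A loop of 275 kb from 10550001 to 10574999 and 10825001 to 10849999 had identical anchors in both replicates, with n of 22 (percentile 32.6) in replicate 1 and of 85 (percentile 92.7) in replicate 2, with an end of Rmi2 in its right anchor. In replicate 2 alone, an anchor at 10775001 to 10799999 held the whole of Socs1 and the sperm chromatin genes Tnp2, Prm3, Prm2 and Prm1. Loops of replicate 2 linked it across 200 kb to 10575001 to 10599999 (n = 81, percentile 81.7) and across 125 kb to 10650001 to 10674999 (n = 85, percentile 61.3). Neither partner held a protein-coding gene end. The anchor does not tell Socs1 from its neighbours, since 25 kb held 5 genes.

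Irf7, the factor that amplifies type I interferon production, lay whole in the left anchor of a 100 kb replicate 2 loop on chromosome 7. The loop joined 141250001 to 141274999 and 141350001 to 141374999 (n = 93, percentile 59.6), and the anchors also held ends of Phrf1 and Cdhr5 on the left and of Eps8l2 on the right. Nlrc5, which encodes the transactivator of MHC class I genes, had no end in an anchor, but the right anchor of a shared loop lay inside its body on chromosome 8. That loop spanned 150 kb in replicate 1 (right anchor 94475001 to 94499999, n = 29) and 160 kb in replicate 2 (right anchor 94490001 to 94494999, n = 13). Usp18, the gene of an ISG15 protease that damps receptor signalling, also held an anchor in its body, at 121260001 to 121269999 on chromosome 6. A replicate 2 loop of 80 kb linked it to an anchor at Pex26. Irf9 and Stat2, which encode parts of the ISRE-binding complex, were in neither position and lay 40.0 and 42.1 kb from the nearest anchor.

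**Figure D2:**
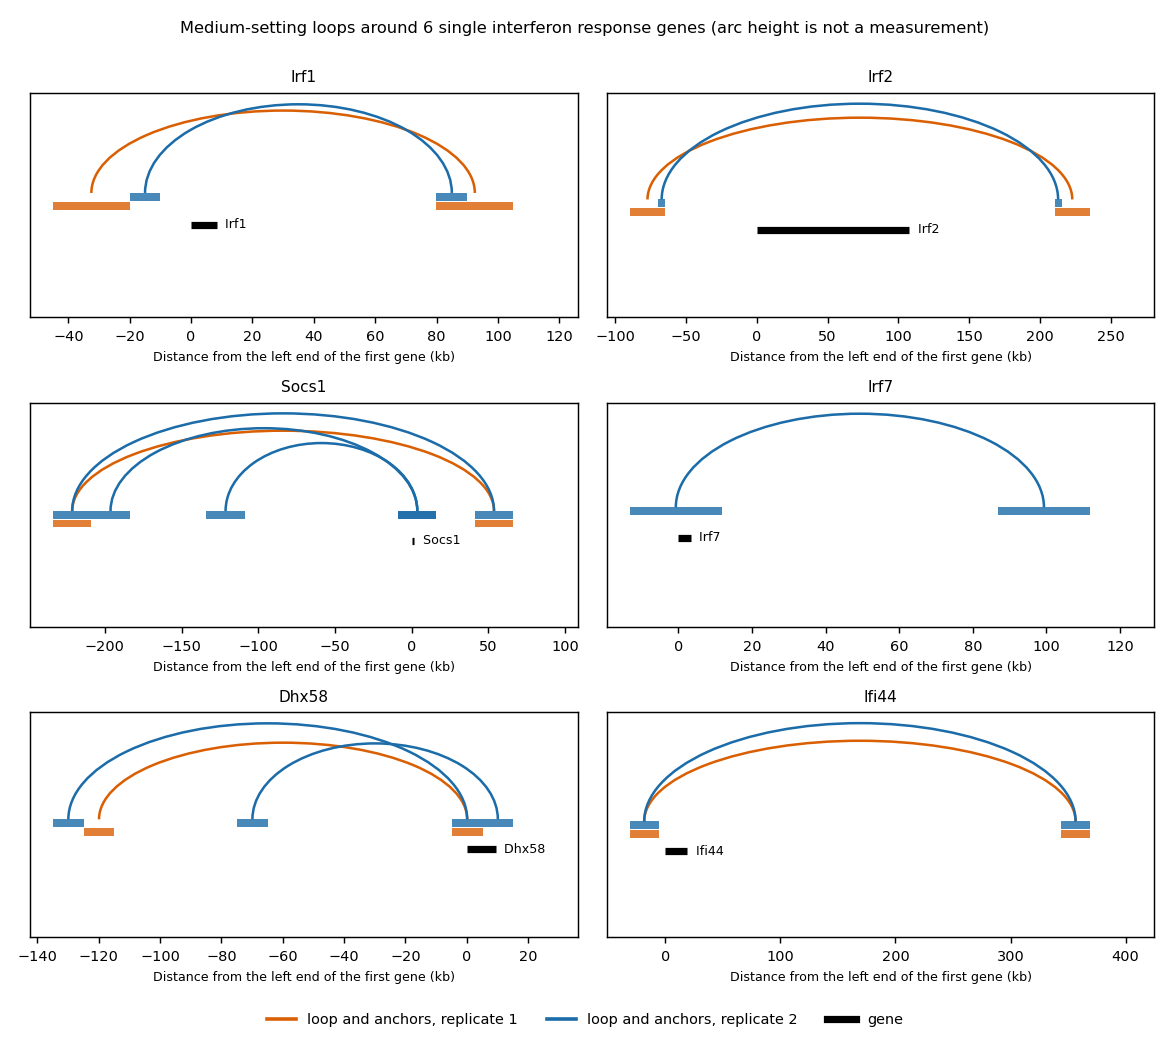
Arcs join the anchors (boxes) of medium-setting loops at or over 6 genes, with kb from the gene's left end on the horizontal axis and colours for the replicate. Irf1, Irf2, Socs1 and Ifi44 lie under loops of both replicates, Dhx58 lies at an anchor in both, and Irf7 has a replicate 2 loop alone.

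Of 10 sensors and their partners, 1 was at an anchor and 3 under a loop, against 22.6% and 34.9% of other protein-coding genes, which for so few genes is no difference to read. Dhx58, the gene of LGP2, which tunes RNA sensing by MDA5, was the only 1 of the 43 genes at an anchor in both replicates. Its left end lay in the anchor at 100690001 to 100699999 on chromosome 11, with n of 15 in replicate 1 (percentile 50, loop of 120 kb) and of 25 in replicate 2 (percentile 29.9, loop of 130 kb). This anchor also held an end of Zfp385c, so it does not tell Dhx58 from its neighbour. The partner anchor held ends of Ttc25 and Cnp in replicate 1 and no protein-coding gene end in replicate 2. The right end of Dhx58 lay in the next 10 kb bin, at 100700001 to 100709999. In replicate 2 a loop of 80 kb linked that bin to 100620001 to 100629999, which held ends of Dnajc7, Nkiras2 and Zfp385c (n = 24, percentile 12.7). Nkiras2 encodes an inhibitor of NF-kB signalling. An end of Kat2a, a histone acetyltransferase gene, shared the bin with Dhx58.

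Trim25, the gene of a ubiquitin ligase that acts in RNA sensing, was the only protein-coding gene under a 50 kb loop in replicate 2, from 88980001 to 88989999 and 89030001 to 89039999 on chromosome 11 (n = 36, percentile 45.5). It lay 9.4 kb from the left anchor and 9.71 kb from the right, which held an end of Dgke. Zbp1, a sensor of Z-form nucleic acid, was under a 370 kb replicate 2 loop on chromosome 2 with Pmepa1 and 1 other protein-coding gene (n = 15, percentile 27.3). Ifih1, the gene of the RNA sensor MDA5, held a 25 kb anchor in its body, at 62600001 to 62624999 on chromosome 2. A replicate 2 loop of 150 kb linked it to an anchor at Gcg (n = 55, percentile 24.5).

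The 5 listed oligoadenylate synthetase genes and relatives had no loop at or over them. The synthetases are activated by double-stranded RNA and make a second messenger of the antiviral response. Oas1a, Oas2 and Oas3 lie in a cluster of 8 protein-coding genes over 177.2 kb of chromosome 5, and were 42.5, 105.3 and 128.1 kb from the nearest anchor. The relatives Oasl1 and Oasl2, elsewhere on that chromosome, were 37.1 and 62.8 kb away. Eif2ak2, the gene of the RNA-activated kinase PKR, was 92.4 kb away. Thus 5 of the 7 sensor genes in neither position belonged to this family, and the other two were Ifih1 and Eif2ak2.

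Of 18 antiviral effectors and other induced genes, 5 were at an anchor and 10 under a loop, against 22.6% and 34.9% of other protein-coding genes, and nothing is read from counts this small. All of these effectors but Ifi44 were placed in replicate 2 alone. On chromosome 16 the ADP-ribosyltransferase gene Parp14 lies apart from Parp9 and Dtx3l, whose products form a complex, with 55.0 kb between Parp14 and Dtx3l. The ends of Parp9 and Dtx3l overlap by 558 bases. A replicate 2 loop of 60 kb joined the anchor at 35870001 to 35879999, with the right end of Parp14, to that at 35930001 to 35939999, with the overlapping ends of Dtx3l and Parp9. The Dtx3l end in the anchor is its annotated start. The n of 63 was as high as or higher than that of all 196 replicate 2 loops of the same width and span, and lay at percentile 99.7 of all replicate 2 loops on 10 kb anchors.

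This was the only loop in either replicate that had 1 of the 43 genes at each anchor, and it was also in the high-setting list. A second replicate 2 loop ran from 35850001 to 35874999, which held the same end of Parp14, over 200 kb to 36050001 to 36074999, at Fam162a and Ccdc58 (n = 56, percentile 37.3). It covered Dtx3l and Parp9. Replicate 1 listed no loop at these genes.

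The Ifit genes, whose products bind viral RNA, had a loop that covered a part of their cluster. In replicate 2 a 90 kb loop on chromosome 19 joined 34540001 to 34549999 and 34630001 to 34639999 (n = 29, percentile 37.1), and it was in the high-setting list. Ifit2 began 0.55 kb to the right of the left anchor, and Ifit3 and its relative Ifit3b also lay whole under the loop. Ifit1 lay outside it, with its annotated start 0.9 kb beyond the right anchor. No protein-coding gene end lay in either anchor. The related gene Ifit1bl1 had its right end in a replicate 1 anchor at 34660001 to 34669999, joined over 110 kb to 34770001 to 34779999 by a shared loop (n = 19), which lay beyond Ifit1.

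The Mx genes, which encode dynamin-like antiviral GTPases and are annotated in GRCm38 as transcribed pseudogenes, lay under 1 replicate 2 loop on chromosome 16. The 150 kb loop joined 97425001 to 97449999, with the left end of Mx1 and an end of Bace2, to 97575001 to 97599999, 14.1 kb beyond Mx2 (n = 72, percentile 50.3). Herc6, the gene of an ISG15 ligase in mouse, had its left end, the annotated start, in an anchor at 57575001 to 57599999 on chromosome 6. Herc6 alone had a protein-coding gene end there. A replicate 2 loop of 225 kb linked this anchor to 57800001 to 57824999, where no protein-coding gene ended (n = 65, percentile 56.5).

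Ifi44, an induced gene of uncertain function, was under a 375 kb loop on chromosome 3 with identical anchors in both replicates, at 151700001 to 151724999 and 152075001 to 152099999. The n was 17 in replicate 1 (percentile 6.2) and 35 in replicate 2 (percentile 19.2), and the loop also covered its relative Ifi44l and Ptgfr. Ifi44 lay 5.92 kb from the left anchor. Xaf1, a proapoptotic gene, was under a 225 kb replicate 2 loop with 8 neighbours on chromosome 11. Bst2, the gene of tetherin, which holds budding virus at the cell surface, was under replicate 2 loops of 720 and 850 kb on chromosome 8 that covered 29 and 34 protein-coding genes.

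In neither position were Isg15, Isg20, Rsad2, Cmpk2, Samhd1, Ifi35 and Ifit1. Isg15, the gene of a ubiquitin-like modifier, lay farthest of the 43 genes from an anchor, at 629 kb. Rsad2, which encodes viperin, and its neighbour Cmpk2, a nucleotide kinase gene, were 22.7 and 49.1 kb from the nearest anchor, with no loop over either.

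The antigen presentation genes Psmb9, Tap1 and Psmb8 lie side by side within 19.4 kb of the MHC region on chromosome 17. They encode subunits of the immunoproteasome and a chain of the peptide transporter. A replicate 2 loop of 60 kb joined 34170001 to 34179999 and 34230001 to 34239999 (n = 35, percentile 43.4) and was in the high-setting list. It covered these 3 genes and Tap2, which encodes the other chain, and no further protein-coding gene. Psmb9 lay 2.03 kb from the left anchor, and the right anchor held an end of H2-Ob. B2m, the gene of the MHC class I light chain on chromosome 2, was in neither position, 36.9 kb from the nearest anchor.

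**Figure D3:**
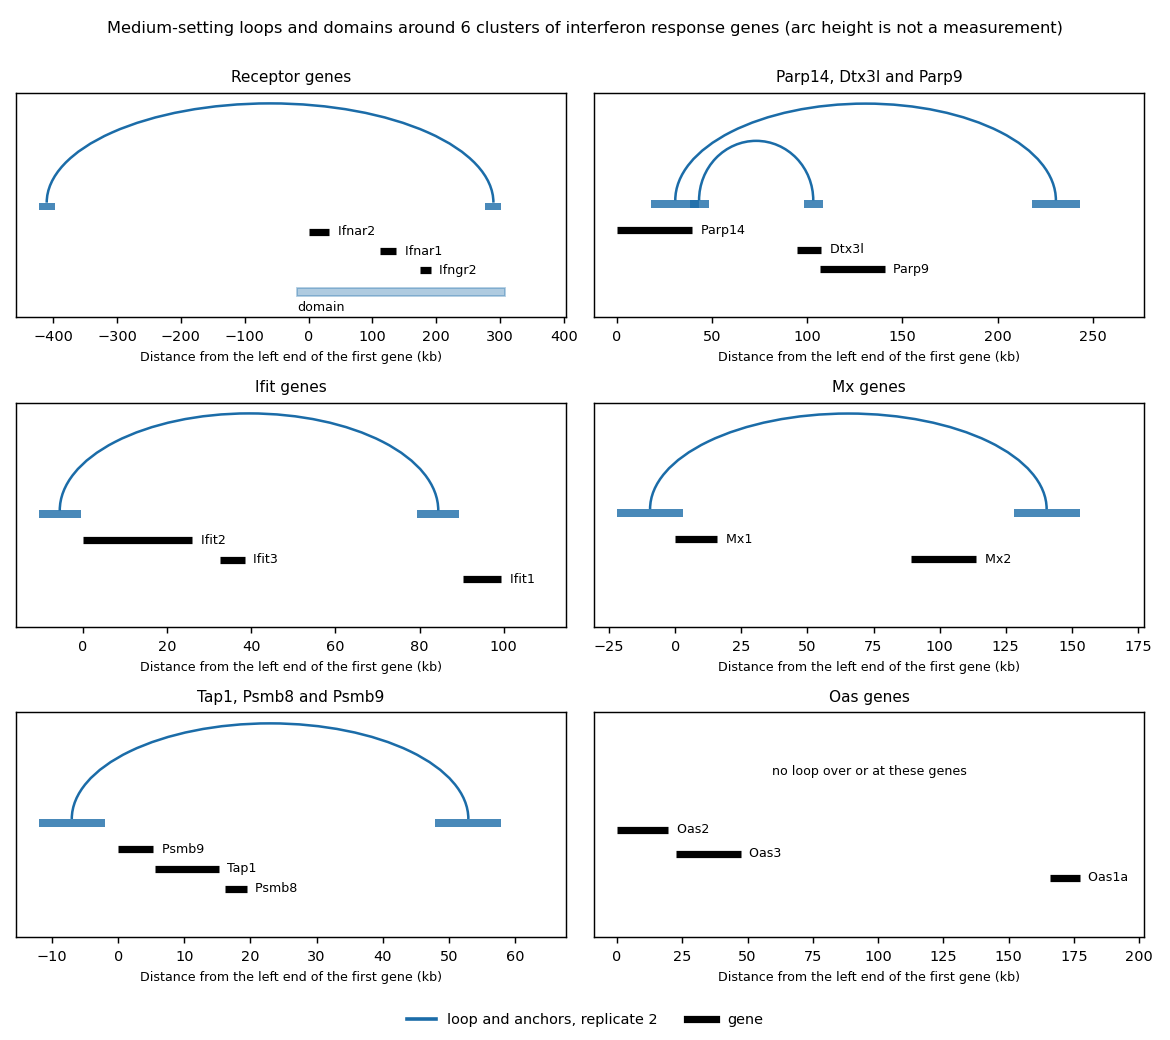
Arcs join the anchors (boxes) of medium-setting loops at or over 6 clusters of the genes, with kb from the left end of the first gene on the horizontal axis and the domain over the receptor genes as a pale bar. All loops and the domain shown are from replicate 2, and the Oas cluster has none.

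With under 500 kb between neighbours as the limit, 21 of the 43 genes fell into 8 clusters. In 3 clusters a single loop covered every member (the receptor, Mx and Psmb9 to Psmb8 clusters). In the Ifit and Parp clusters a loop covered 2 of the 3 members, and in the Oas, Oasl and Rsad2 clusters none. Of 13 pairs of neighbouring members, 7 lay under 1 loop together. Counting each cluster once left 30 units, of which 6 (20%) had a member at an anchor and 16 (53.3%) a member under a loop. A unit counted if any of its members did, which raises its share over that of single genes. Pairs and units were not counted for other genes, so these counts cannot be set against the shares of other genes.

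The 23 covered genes lay under 24 distinct loops, with the loops of both replicates counted. For genes at an anchor, the interval of the 43 genes included the share of other genes. For genes under a loop it lay above that share with both replicates together, but replicate 2 by itself covered all 23 genes. In replicate 2 alone the interval was 38.9 to 67.5%, against 34.0%. In replicate 1 alone it included the share of other genes (3.68 to 21.6%, against 9.28%). Under the high setting 4 genes were at an anchor (9.3%, 3.68 to 21.6%, against 9.53%), namely Dhx58, Parp14, Parp9 and Dtx3l, and 12 under a loop (27.9%, 16.7 to 42.7%, against 16.9%), where both intervals included the share of other genes. With loops under 500 kb alone, 19 genes were covered (44.2%, 30.4 to 58.9%, against 29.6%). At shared loops 1 gene, Dhx58, had an end in an anchor (2.33%, 0.412 to 12.1%, against 5.83%), and 4 were covered (9.3%, 3.68 to 21.6%, against 7.35%). No test of the list was made, and these shares are given as a description. The list was chosen with earlier results of these data known, so an interval above a share is no independent result. Among the 41 protein-coding members, without the Mx genes, 7 were at an anchor (17.1%) and 21 under a loop (51.2%).

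**Figure D4:**
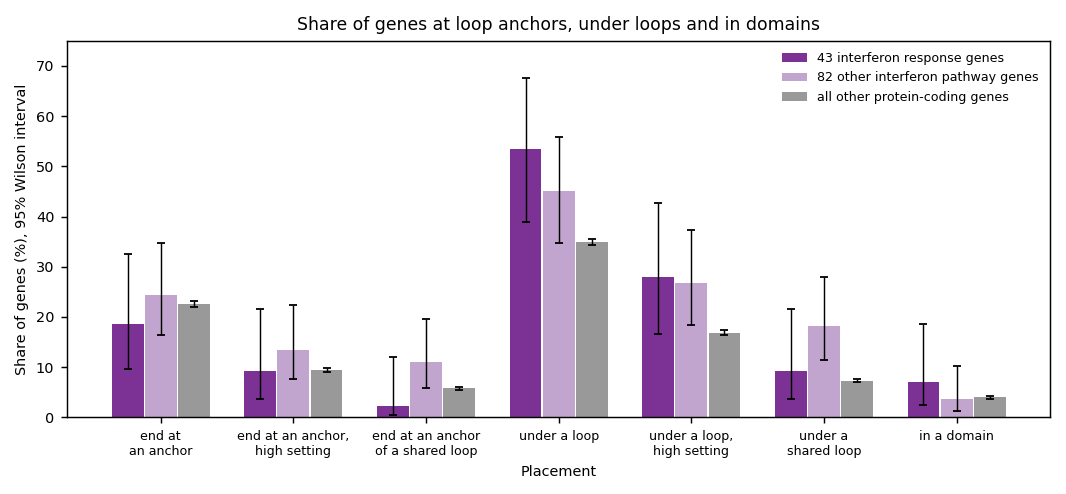
Bars give the percentage of the 43 interferon response genes, of 82 other interferon pathway genes and of all other protein-coding genes in each placement, with 95% Wilson intervals. For genes under a medium-setting loop of either replicate the first bar stands at 53.5%, the second at 45.1% and the last at 34.9%.

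With other ways of placing a gene, an anchor lay anywhere on the gene body in 11 genes (25.6%, against 30.0%), the 3 added ones being Nlrc5, Usp18 and Ifih1. An end lay within 10 kb of an anchor in 16 genes (37.2%, against 36.5%). The annotated start lay in an anchor in 4 of 34 genes with a known start (11.8%, 4.67 to 26.6%, against 14.9%). The median distance from a gene end to the nearest anchor was 18.2 kb for the 43 genes (quartiles 1.47 and 45.4 kb) and 27.2 kb for other genes (quartiles 1.3 and 136 kb). From the loops of replicate 1 alone the medians were 118 kb and 387 kb, and under the high setting 42.1 kb and 85.4 kb.

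In size and surroundings the medians of the genes differed from those of others, but the quartile ranges overlapped. Their median length was 14.8 kb (quartiles 8.74 and 25.3 kb), against 17.4 kb (5.88 and 45.1 kb). They had a median of 19 protein-coding genes within 500 kb (quartiles 12 and 27.5), against 15 (8 and 27). The median span of the shortest loop over a covered gene was 150 kb for the 23 genes and 175 kb for the 7504 other covered genes. The part of length and gene density in the share under loops was not tested.

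**Figure D5:**
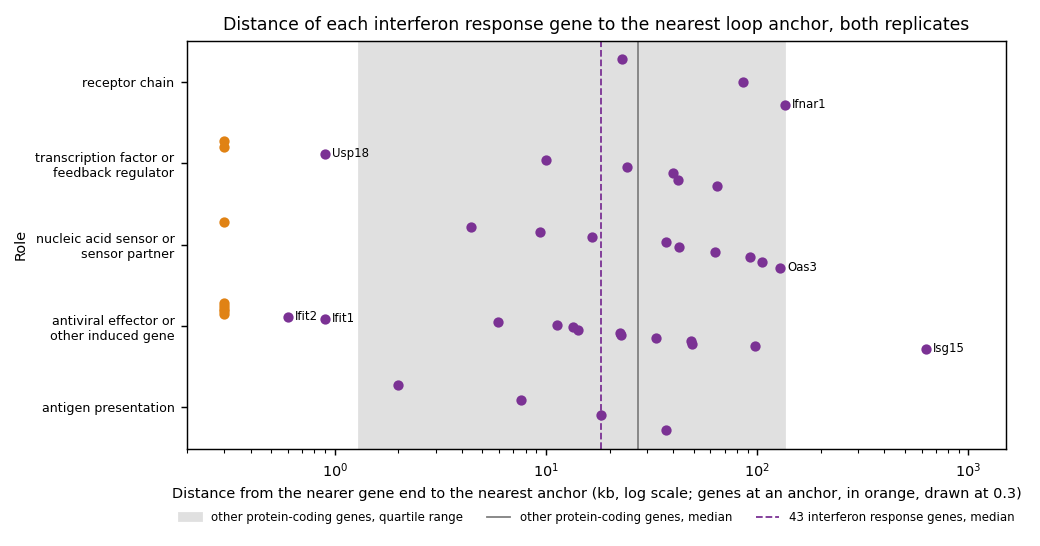
Points give the distance in kb (log scale) from the nearer end of each of the 43 genes to the nearest anchor of either replicate, by role, with genes at an anchor in orange at a fixed place. The dashed line is the median of the 43 genes (18.2 kb), and the grey line and band are the median (27.2 kb) and quartile range of other protein-coding genes.

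Other genes of the interferon pathway, on a list of 83 of which 82 were matched, were at anchors in 20 cases, or 24.4% (16.4 to 34.7%), near the 22.6% of other protein-coding genes. Under loops were 37, or 45.1% (34.8 to 55.9%), against 34.9%. In replicate 1, 7 were at an anchor (8.54%, 4.2 to 16.6%, against 6.68%) and 16 under a loop (19.5%, 12.4 to 29.4%, against 9.28%). At an anchor of a shared loop were 9 (11.0%, 5.88 to 19.6%, against 5.83%), and 15 lay under a shared loop (18.3%, 11.4 to 28.0%, against 7.35%). Some of these genes are neighbours under the same loop, such as Gbp2, Gbp3 and Gbp5, yet the intervals treat them as independent. This list was not counted once per cluster, and it too was chosen with earlier results of these data known. Among them Ifnb1, the interferon beta gene, lay whole in a replicate 2 anchor at 88500001 to 88524999 on chromosome 4, which a 100 kb loop with an n of 157 linked to Focad and Hacd4. Jak1 and Tyk2, which encode receptor kinases, were each at a replicate 2 anchor, and an end of Jak2 was at a shared loop of 190 kb. Ifitm2 and Ifitm3, membrane antiviral genes, were joined over 50 kb in replicate 2. Loops also joined pathway genes of the guanylate-binding protein family, Gbp5 to Gbp2 in both replicates by a shared loop and Gbp5 to Gbp3 in replicate 2. Aim2 and Ifi204, members of a family of DNA sensors, were joined over 275 kb in replicate 2.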

How the data were processed

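Hi-C was run on 2 replicates of HPC5 cells, fixed with formaldehyde and cut with the enzymes of the Arima kit, per the labels' protocols. HiC-Pro 2.11.1 and the build mm10 are named in the submitters' processing notes. For the loop and domain callers, the program was not given in the sources used here. The deposited files hold positions: loops with 2 anchors, n and a second value that was not used, and domains from bins of 5000 bp. No read totals are given, so depth is unknown.

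Loop coordinates were kept, and 1 was added to domain starts so that they count from 1. Gene positions are those RefSeq gives for GRCm38.p6, the assembly behind mm10, on 19 autosomes and X, without 345 genes on other scaffolds. The table has no strand, so a gene counted as at an anchor when either end was, and starts came from the promoter table where it holds the gene. Intervals are Wilson intervals at 95%. The members and lists were chosen with earlier results of these data known. Named were members at an anchor, under a shared loop or in a domain, and clusters of neighbouring members. The other members were to be named without values, and the values given for Irf9, Stat2, Nlrc5, Usp18, Ifih1, Trim25, Zbp1, Eif2ak2, Xaf1, Bst2, Isg15 and B2m were added after they were seen. Other genes are named where they share an anchor, loop or domain with a member or belong to the pathway list and had an end at an anchor, and 1 such gene is counted but not reported here by name. There was 1 group, so no test between conditions was made. The scripts (Python 3.11.15, pandas 2.3.3, SciPy 1.17.1) were tested on simulated placements. Alternatives were the high setting, each replicate alone, other placement and matching rules, and other genes without olfactory and vomeronasal receptors. Members counted once per cluster under loops, and protein-coding members alone, were added after seeing the data.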

Additional observations from a re-analysis of the deposited data

How the results depend on the processing

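No paired analysis was possible because there is 1 group. Depth is unknown, so a missing loop sets no limit. Leaving out a replicate moved genes at an anchor between 1 and 8, genes under a loop between 4 and 23, genes in a domain between 0 and 3, loops joining members between 0 and 1, pathway genes at an anchor between 7 and 19, and the median distance between 18.4 and 118 kb. In each case the lower count and the longer distance came from replicate 1 alone. The high setting gave 4 genes at an anchor, 12 under a loop and 11 pathway genes at an anchor. Ends within 5 and 10 kb gave 13 and 16 genes and 32 and 40 pathway genes, and the annotated start alone gave 4 and 12. At shared loops there were 2 genes by gene body, 3 within 10 kb, 0 by annotated start and 2 with a matching distance of 50 kb, against 1. The high setting also gave a median distance of 42.1 kb, against 18.2 kb, and for other genes 85.4 kb, against 27.2 kb. That move is over 1.5 times but under the SD between the replicates' medians (70.8 kb, n = 2), and counts as within error. The SD comes from replicate lists of very different length and exceeds the median itself. It is thus a loose limit, and the label does not show that the distance was stable. Of 40 alternatives 21 left a count within 1.5 times, or the distance or motif share within its error, and 19 moved it. Without olfactory and vomeronasal receptors, 24.0% of other genes were at an anchor.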
